A study of Mus musculus with 12 samples.

Results

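The genes described here are 10 sensors and effectors of double-stranded RNA, taken from the deposited count table by their symbols: Ddx58, Ifih1, Dhx58, Tlr3, Zbp1, Eif2ak2, Adar, Trim25, Mavs and Irf3. They are 10 of the 55335 genes of the table, and all 10 passed the filter on low counts that left 14935 genes to test. Polyadenylated RNA was sequenced from PYMT-R221A, a line of mouse mammary tumour cells, in 4 groups of 3 libraries. The first group was treated with 40 µM KCC-07, which by the series title is a compound against the MBD2 pathway. The second was transfected with siRNA against Mbd2, which encodes a reader of methylated DNA (siMBD2). The third was transfected with a scramble siRNA, and the fourth was the control. All groups came from the same line, and no second line was used here. The scramble siRNA is the reference for siMBD2, and both of these groups received siRNA, which is short double-stranded RNA. Between them, the loss of Mbd2 and a difference between the siRNAs themselves cannot be told apart. The sources used here give neither a vehicle for KCC-07 nor durations, siRNA sequences or a transfection reagent. Replicates are called biological in the labels, and the p-values of the main test measure the spread between libraries of a group. Those of the fit with the replicate number as a block measure the spread left after differences between replicate numbers are taken out.

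Cells tell foreign or misplaced RNA from their own by its shape and ends. In the cytosol, RIG-I (the product of Ddx58) binds short double-stranded RNA with triphosphate ends, MDA5 (Ifih1) assembles along long double-stranded RNA, and LGP2 (Dhx58), which lacks a signalling domain, modulates both. RIG-I and MDA5 signal through MAVS on mitochondria to the kinases TBK1 and IKKε, which activate IRF3 and so the interferon genes. Interferon in turn raises the transcription of most of the sensors through the interferon-stimulated response element in their promoters.

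Deposited counts summed to between 25831299 and 33956792 per library. Mbd2, the target of the siRNA, was present at 35.7, 34.7 and 30.6 CPM in siMBD2 cells and at 75.8, 83.2 and 72.5 CPM in scramble cells. CPM here is a gene's count relative to the total of its library, scaled by TMM, edgeR's normalization for composition. Mbd2 fell by 1.20 on the log2 scale in siMBD2 cells (SE 0.09, edgeR adjusted p = 0.0002). With KCC-07 it differed from control by 0.00 on the log2 scale (SE 0.09, adjusted p = 0.99). In every group replicate 3 differed from the other replicates. Transcripts of the mitochondrial genome took 3.90%, 2.70%, 3.01% and 2.81% of its counts in KCC-07, siMBD2, scramble and control cells, against 1.45% to 2.32% in the other libraries. A batch tag in the labels holds the number of the biological replicate, and same-numbered libraries within an arm were read here as pairs. Results are therefore given with 1 mean per group, which was the main test, with the replicate number as a block within the drug arm and within the siRNA arm, and without the 4 libraries of replicate 3.

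The promoters of these genes are shown because most of the sensors are known as interferon-inducible, and the response element is the sequence through which that induction works. Windows of 300 bases, from 250 before to 50 after an annotated start, were taken from RefSeq (GRCm38.p6) for the 8 of the 10 genes that the table holds. They were searched on both strands for the core of the interferon-stimulated response element, GAAANNGAAA or TTTCNNTTTC, which is printed in capitals. The first 3 windows hold it, and the last 2 are examples of windows that do not. The Ddx58 window lies at chr4:40239776-40240075, the Ifih1 window at chr2:62646206-62646505 and the Eif2ak2 window at chr17:78882523-78882822, all on the minus strand. The Mavs window lies at chr2:131233813-131234112 and the Irf3 window at chr7:44997398-44997697, both on the plus strand.
Ddx58: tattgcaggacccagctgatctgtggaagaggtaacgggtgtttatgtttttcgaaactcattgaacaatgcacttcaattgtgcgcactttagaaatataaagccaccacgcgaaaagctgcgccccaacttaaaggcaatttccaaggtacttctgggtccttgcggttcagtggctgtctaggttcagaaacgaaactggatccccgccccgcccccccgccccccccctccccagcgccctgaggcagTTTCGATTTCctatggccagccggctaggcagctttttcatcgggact
Ifih1: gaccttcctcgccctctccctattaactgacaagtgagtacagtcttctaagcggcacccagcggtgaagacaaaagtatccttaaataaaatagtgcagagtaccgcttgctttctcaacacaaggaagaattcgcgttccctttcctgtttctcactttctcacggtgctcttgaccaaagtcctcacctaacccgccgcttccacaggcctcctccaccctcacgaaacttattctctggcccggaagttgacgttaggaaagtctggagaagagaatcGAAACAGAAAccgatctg
Eif2ak2: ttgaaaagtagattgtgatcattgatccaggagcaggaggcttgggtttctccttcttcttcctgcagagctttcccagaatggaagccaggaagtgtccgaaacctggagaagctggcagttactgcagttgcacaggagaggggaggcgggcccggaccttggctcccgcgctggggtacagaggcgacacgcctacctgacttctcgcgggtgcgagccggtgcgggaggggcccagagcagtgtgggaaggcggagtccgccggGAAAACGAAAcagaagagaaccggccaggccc
Mavs: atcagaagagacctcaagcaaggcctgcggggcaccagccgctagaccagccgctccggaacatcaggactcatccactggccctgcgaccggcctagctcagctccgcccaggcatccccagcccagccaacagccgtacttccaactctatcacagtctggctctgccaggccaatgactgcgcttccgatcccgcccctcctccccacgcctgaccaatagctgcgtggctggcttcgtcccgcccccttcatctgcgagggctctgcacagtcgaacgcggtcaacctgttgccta
Irf3: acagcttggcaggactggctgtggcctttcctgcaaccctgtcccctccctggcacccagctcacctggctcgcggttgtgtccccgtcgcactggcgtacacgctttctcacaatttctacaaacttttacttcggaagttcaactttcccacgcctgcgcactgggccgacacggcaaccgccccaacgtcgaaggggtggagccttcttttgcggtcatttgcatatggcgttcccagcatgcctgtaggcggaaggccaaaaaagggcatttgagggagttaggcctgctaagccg

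In each of the 3 windows the match started after the annotated start, at base 3 in Ddx58, base 33 in Ifih1 and base 19 in Eif2ak2. The core was in 3 of the 8 genes, or in 3 of their 10 windows, since Adar has 3 annotated starts. Of all 32851 windows of that length in the table, 1131 (3.44%) held it. The windows of Adar, Tlr3 and Trim25 did not hold these letters either, and these 3 genes were higher with siMBD2 than with scramble in all 3 pairs of libraries, as the 3 genes with the core were. Adar also passed the test with the replicate block for KCC-07 and for siMBD2. Only exact letters were counted, and a window without them may hold a near match. Such strings are gaaagtgaac in an Adar window, tttcactttg in the Tlr3 window and tttcgattcc in the Trim25 window. No search for near matches was run, so these strings are examples, and the Mavs and Irf3 windows were not compared for them. How common near matches are over all windows was not counted. A match is a string of letters and not evidence of binding, and the lack of one is not evidence that no element is present.

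With KCC-07, the RIG-I-like receptors (Ddx58, Ifih1 and Dhx58) and Adar passed as higher than control with the replicate block, and no member passed with 1 mean per group over the 12 libraries. Ddx58, Ifih1, Adar and Tlr3 were each higher in all 3 KCC-07 libraries than in any control library, a pattern shown by 12.3% of all genes tested. In that fit an adjusted p of 0.05 was passed by 5.65% of all genes, and 2 members (Ddx58 and Ifih1) had an unadjusted p under 0.05, as 25.1% of all genes had. DESeq2 also called none of them, and 12.5% of all genes. The 4 genes called with the block were 4 of 10 (against 21.8% of all genes called in either direction and 12.8% called higher). Without the libraries of replicate 3 these 4 and Tlr3 passed (5 of 10, against 25.6% of all genes). The median log2 fold change over the 10 genes was 0.19, against 0.02 over all genes tested.

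With siMBD2 against scramble, 8 of the 10 genes had a positive log2 fold change. The median was 0.71, against 0.00 over all genes tested. In the fit with 1 mean per group none of the 10 passed the threshold, and neither did nearly all other genes (0.0402% passed, 6 genes including Mbd2, all lower). At an unadjusted p under 0.05 there were 6 members, against 5.26% of all genes, and DESeq2 called Ddx58 alone (0.569% of all genes). With the replicate block, Ddx58, Ifih1, Dhx58, Zbp1, Eif2ak2 and Adar were higher, which is 6 of 10 against 0.75% of all genes called and 0.422% called higher. Without the libraries of replicate 3 these 6 and Trim25 passed (7 of 10, against 1.08% of all genes). The median was 0.50 without the libraries of replicate 3. It was 0.22 without siMBD2 replicate 3 alone and 1.05 without scramble replicate 3 alone, each of which leaves the partner of that library in.

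Scramble siRNA against control put a positive sign on the same number of members, 8 of 10. The median log2 fold change was 0.64, against -0.03 over all genes tested. Ddx58, Ifih1, Adar and Tlr3 were higher in every scramble library than in any control library, as were 16.4% of all genes. None of the 10 passed in the fit with 1 mean per group, where 8.79% of all genes did, and 4 had an unadjusted p under 0.05, against 27.2% of all genes. DESeq2 called 2 members, Adar and Tlr3 (15.4% of all genes). Without the libraries of replicate 3, Ddx58, Ifih1, Tlr3, Eif2ak2, Adar and Trim25 passed (6 of 10, against 41.1% of all genes). The median was then 0.33, and it was 0.18 without scramble replicate 3 alone. Whether the drug and siRNA arms shared batches was not given in the sources used here, and the library names number the replicate 3 libraries differently in the arms, so an arm effect and an effect of the scramble siRNA cannot be told apart. This comparison shares its control libraries with the KCC-07 comparison and its scramble libraries with the siMBD2 comparison.

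**Figure D1:**
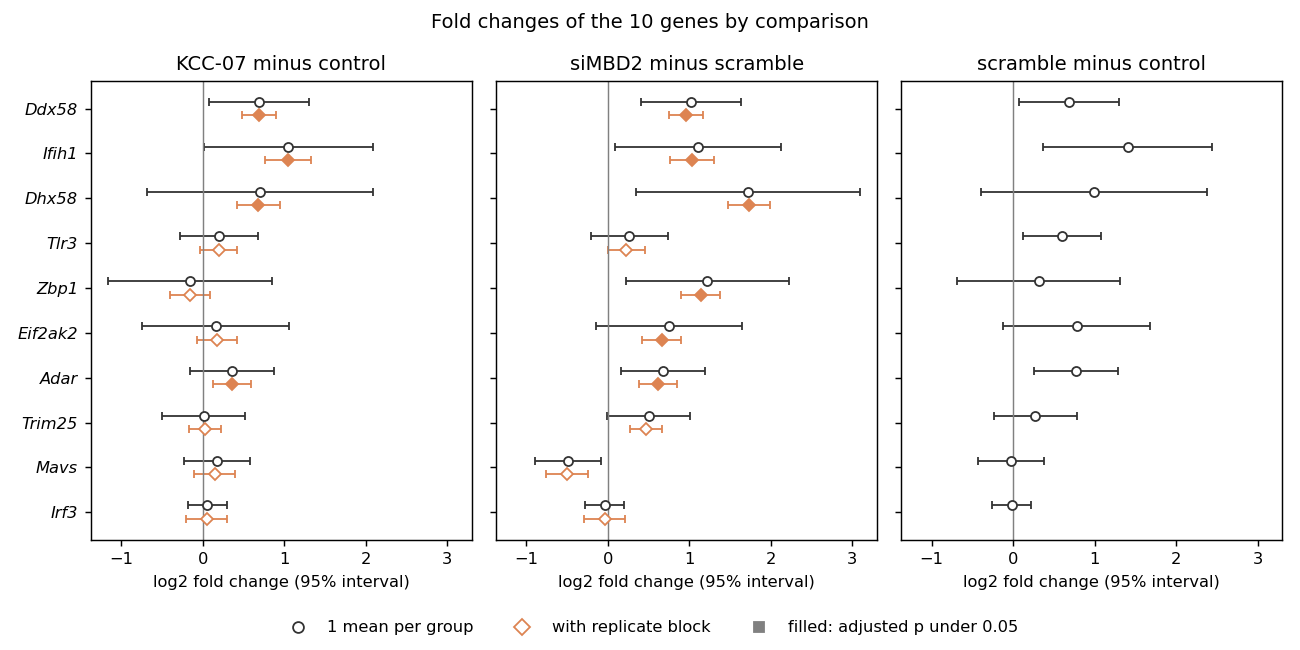
Log2 fold change of each gene (x axis) with its 95% interval, in 3 panels by comparison, with circles for the fit with 1 mean per group and, in the first 2 panels, diamonds for the fit with the replicate block. Filled symbols have an adjusted p under 0.05, which here only block fits gave: 4 genes for KCC-07 minus control and 6 for siMBD2 minus scramble.

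Ddx58 (chr4:40203773-40239828, minus strand, GRCm38.p6), whose product RIG-I is the sensor of triphosphate RNA ends, was the most abundant of the 10 genes per kilobase of exon. It was present at 188, 164 and 199 CPM in KCC-07 cells, 280.2, 258 and 574 CPM in siMBD2 cells, 151, 149 and 250.0 CPM in scramble cells, and 118, 110.1 and 114 CPM in control cells. KCC-07 and scramble cells thus sat at similar levels above a tight control group, and every siMBD2 library lay above every scramble library, with replicate 3 far above the other replicates in both siRNA groups. Means were 184 ± 17.7 CPM with KCC-07 and 114 ± 3.76 CPM in control (SD, n = 3 each), and 371 ± 176 CPM with siMBD2 and 183 ± 57.9 CPM with scramble. The log2 fold change with KCC-07 was 0.69 (SE 0.28, adjusted p = 0.15), and with the block 0.69 (SE 0.09, adjusted p = 0.0032). For siMBD2 against scramble it was 1.02 (SE 0.28, adjusted p = 0.46), and with the block 0.96 (SE 0.09, adjusted p = 0.0029). Within replicate numbers siMBD2 was 1.86, 1.73 and 2.30 times scramble, so the ratio was similar in replicate 3 and in the others. Among the members, Ddx58 was the one whose siMBD2 and scramble libraries did not overlap upward, a pattern of 10.3% of all genes. Scramble exceeded control by 0.69 on the log2 scale (SE 0.28, adjusted p = 0.14). As in any bulk sample, more cells expressing a gene and more RNA per cell cannot be told apart here.

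**Figure D2:**
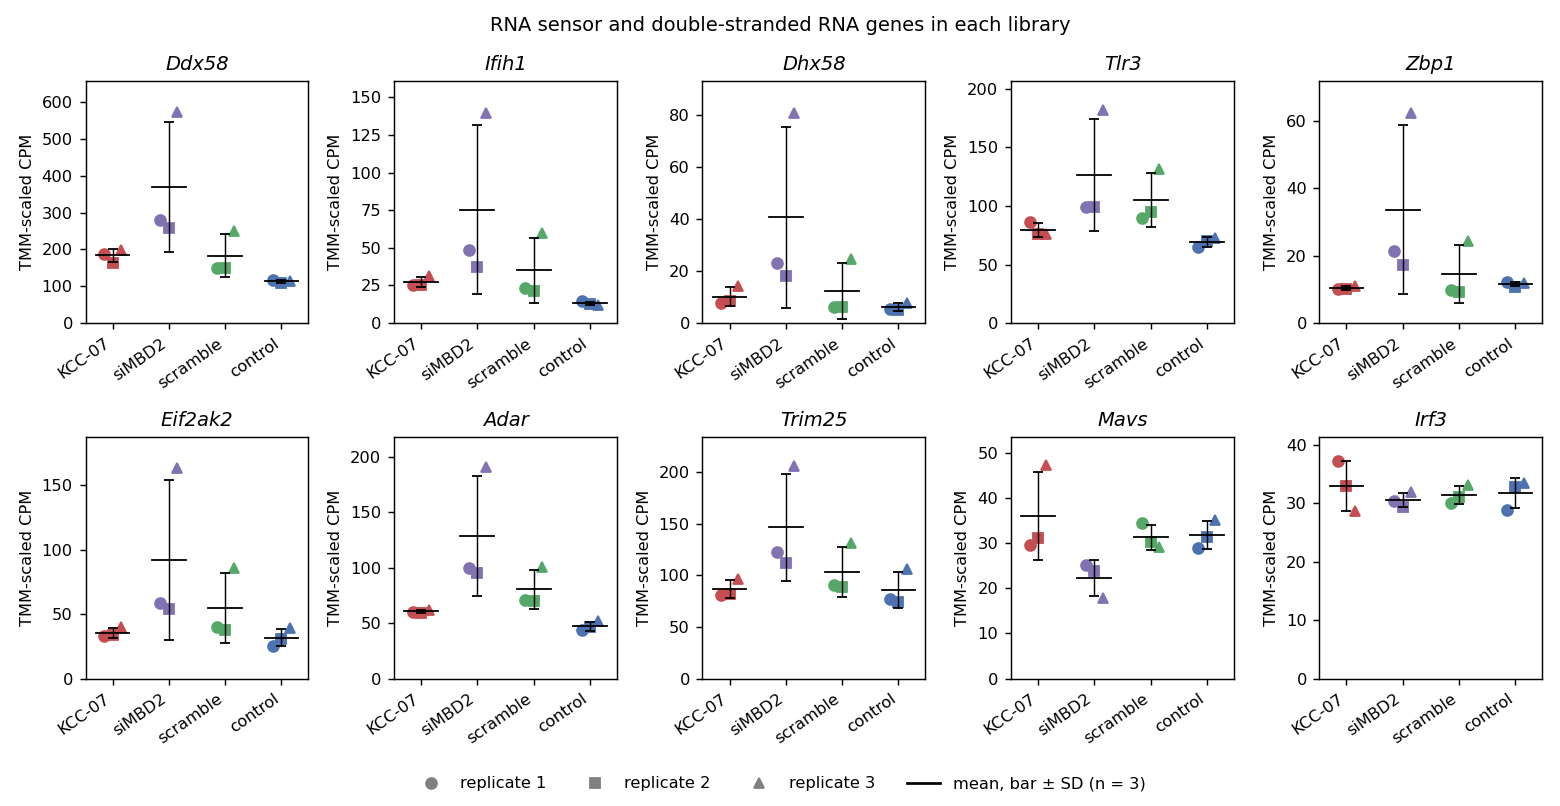
TMM-scaled CPM (y axis, from 0, scaled per gene) of the 10 genes in the 12 libraries, with a marker shape for each replicate number, a line at the group mean and a bar of ± SD (n = 3). In siMBD2 and scramble cells replicate 3 is the highest library for each gene but Mavs, Mavs is lowest in siMBD2 cells, and Irf3 stays between 28.7 and 37.2 CPM in every library.

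Ifih1 (chr2:62595798-62646255, minus strand), encoding the long-RNA sensor MDA5, followed Ddx58 at a lower level. It had 25.2, 25.3 and 31.5 CPM in KCC-07 cells, 48.8, 37.5 and 140 CPM in siMBD2 cells, 23.7, 21.6 and 59.7 CPM in scramble cells, and 14.4, 12.8 and 12.4 CPM in control cells. All 9 libraries of the other groups lay above all control libraries, while siMBD2 and scramble overlapped through scramble replicate 3. With KCC-07 the log2 fold change was 1.05 (SE 0.47, adjusted p = 0.19), and 1.05 with the block (SE 0.12, adjusted p = 0.0021). For siMBD2 it was 1.11 (SE 0.47, adjusted p = 0.87), and 1.03 with the block (SE 0.12, adjusted p = 0.009). The ratios within replicate numbers ran from 1.75 to 2.54 for KCC-07 over control and from 1.73 to 2.34 for siMBD2 over scramble. Scramble exceeded control by 1.41 on the log2 scale (SE 0.48, adjusted p = 0.087).

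Dhx58 (chr11:100694884-100704271, minus strand) encodes LGP2, the family member without signalling domains. It showed the widest range of the 3 receptors, with 7.68, 8.34 and 14.3 CPM in KCC-07 cells, 23.2, 18.2 and 80.8 CPM in siMBD2 cells, 6.03, 6.18 and 24.8 CPM in scramble cells, and 5.50, 5.16 and 7.91 CPM in control cells. The siMBD2 libraries of replicates 1 and 2 lay just below scramble replicate 3, and control replicate 3 overlapped KCC-07 replicate 1. Within replicate numbers siMBD2 was 3.81, 2.92 and 3.25 times scramble, a log2 fold change of 1.72 (SE 0.63, adjusted p = 0.78) and of 1.73 with the block (SE 0.11, adjusted p = 0.0005). KCC-07 was 1.39, 1.61 and 1.80 times control, with a log2 fold change of 0.70 (SE 0.63, adjusted p = 0.53) and of 0.68 with the block (SE 0.11, adjusted p = 0.0072). The KCC-07 effect was smaller than the siMBD2 effect by the test of their difference with the block (-1.05, SE 0.16, adjusted p = 0.012), but not with 1 mean per group (-1.02, SE 0.88, adjusted p = 0.63). Among the 10 genes none passed this difference with 1 mean per group (0.656% of all genes did), and DESeq2 called none of them and 4.13% of all genes. At an unadjusted p under 0.05 there was 1 member, Mavs, against 14.6% of all genes. With the block 3 passed (Dhx58, Zbp1 and Mavs, against 6.9% of all genes), and without the libraries of replicate 3 there were 2 (Dhx58 and Zbp1, against 10.6% of all genes). Exons of Dhx58 overlap those of Dhx58os on the opposite strand, and the strand setting of the counting was not given in the sources used here, so its counts are uncertain by that share.

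Tlr3 (chr8:45395665-45411080, minus strand), the endosomal receptor of double-stranded RNA, which signals through TRIF rather than MAVS, had smaller log2 ratios than the 3 RIG-I-like receptors in each KCC-07 pair and each siMBD2 pair of libraries. Its levels were 86.5, 76.2 and 75.9 CPM in KCC-07 cells, 98.7, 99.1 and 182 CPM in siMBD2 cells, 89.9, 94.5 and 132 CPM in scramble cells, and 65.1, 69.9 and 73.0 CPM in control cells. The KCC-07 and scramble libraries were all above the control libraries, and siMBD2 overlapped scramble. The log2 fold change was 0.20 with KCC-07 (SE 0.22, adjusted p = 0.62, 95% interval -0.28 to 0.68), and it did not pass with the block (adjusted p = 0.19). For siMBD2 it was 0.26 (SE 0.22, adjusted p = 1), and 0.22 with the block (SE 0.10, adjusted p = 0.48), and siMBD2 was 1.099, 1.05 and 1.38 times scramble within replicate numbers. Without siMBD2 replicate 3, but with its scramble partner, it was -0.09. Scramble exceeded control by 0.60 (SE 0.22, adjusted p = 0.10). Its exons overlap Gm45542 on the opposite strand.

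Zbp1 (chr2:173206612-173218923, minus strand) encodes a sensor of Z-form RNA and DNA that recruits RIPK3 to start necroptosis. It was the one member that lay below its paired library in all 3 KCC-07 pairs and above it in all 3 siMBD2 pairs. Its levels were 10.1, 10.2 and 11.04 CPM in KCC-07 cells, 21.3, 17.3 and 62.5 CPM in siMBD2 cells, 9.90, 9.11 and 24.4 CPM in scramble cells, and 12.1, 10.8 and 11.9 CPM in control cells. KCC-07 was 0.83, 0.94 and 0.93 times control within replicate numbers, and siMBD2 was 2.15, 1.89 and 2.56 times scramble. The KCC-07 difference did not pass either test (log2 fold change -0.16, SE 0.46, adjusted p = 0.87, and adjusted p = 0.33 with the block, where the 95% interval was -0.40 to 0.09). The siMBD2 difference was 1.22 (SE 0.46, adjusted p = 0.82), and 1.14 with the block (SE 0.10, adjusted p = 0.0029). The KCC-07 effect minus the siMBD2 effect was -1.38 (SE 0.65, adjusted p = 0.36), and -1.29 with the block (SE 0.15, adjusted p = 0.0065). Scramble replicates 1 and 2 lay below every control library and replicate 3 above every one, and the log2 fold change of scramble over control was 0.32 (SE 0.46, adjusted p = 0.69), or -0.26 without the libraries of replicate 3.

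Eif2ak2 (chr17:78852564-78882573, minus strand) encodes PKR, the kinase that halts translation through eIF2 alpha when it binds double-stranded RNA. It had 33.1, 33.6 and 40.0 CPM in KCC-07 cells, 58.3, 54.1 and 164 CPM in siMBD2 cells, 40.3, 37.9 and 85.7 CPM in scramble cells, and 25.4, 31.1 and 39.0 CPM in control cells. KCC-07 overlapped control, and scramble replicate 3 lay above siMBD2 replicates 1 and 2. The log2 fold change was 0.16 with KCC-07 (SE 0.41, adjusted p = 0.85, and adjusted p = 0.26 with the block). For siMBD2 it was 0.75 (SE 0.41, adjusted p = 1), and 0.66 with the block (SE 0.10, adjusted p = 0.035), with siMBD2 at 1.45, 1.42 and 1.91 times scramble within replicate numbers. Scramble exceeded control by 0.78 (SE 0.41, adjusted p = 0.25). Its exons overlap Gm26637 and n-R5s29 on the opposite strand.

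Adar (chr3:89715022-89753446, plus strand) encodes the deaminase that turns adenosine into inosine in double-stranded RNA, by which the cell's own duplexes escape MDA5. It stood at 60.4, 59.2 and 62.1 CPM in KCC-07 cells, 99.3, 94.95 and 191 CPM in siMBD2 cells, 71.0, 69.9 and 100.2 CPM in scramble cells, and 43.5, 46.4 and 51.7 CPM in control cells. Control was the lowest group without overlap, and KCC-07 cells were the tightest group. KCC-07 exceeded control by 0.36 on the log2 scale (SE 0.24, adjusted p = 0.37), and with the block by 0.36 (SE 0.10, adjusted p = 0.038). For siMBD2 the log2 fold change was 0.68 (SE 0.23, adjusted p = 0.74), and 0.62 with the block (SE 0.10, adjusted p = 0.04). Scramble exceeded control by 0.77 (SE 0.24, adjusted p = 0.065). Adar overlaps Chrnb2 on the opposite strand, whose exons match 23.2% of its transcript, so its counts are uncertain by that gene's share.

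Trim25 (chr11:88999376-89020293, plus strand), a ubiquitin ligase known as a cofactor of RIG-I, was close to its control level with KCC-07. It had 81.3, 81.6 and 96.4 CPM in KCC-07 cells, 123, 112 and 206 CPM in siMBD2 cells, 90.6, 88.9 and 132 CPM in scramble cells, and 77.2, 74.2 and 106 CPM in control cells. Replicate 3 was the highest library in each group, and neither pair of groups separated. With KCC-07 the log2 fold change was 0.01 (SE 0.23, adjusted p = 0.99). For siMBD2 it was 0.50 (SE 0.23, adjusted p = 0.95), and 0.47 with the block (SE 0.08, adjusted p = 0.059), just outside the threshold. Without the libraries of replicate 3 it was 0.39 (SE 0.07, adjusted p = 0.029).

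Mavs (chr2:131234063-131248025, plus strand), the mitochondrial adaptor onto which RIG-I and MDA5 converge, was lower with siMBD2 than with scramble in all 3 pairs, where the sensors were higher. Its levels were 29.5, 31.1 and 47.2 CPM in KCC-07 cells, 25.1, 23.9 and 17.8 CPM in siMBD2 cells, 34.5, 30.2 and 29.1 CPM in scramble cells, and 29.0, 31.4 and 35.2 CPM in control cells. Every siMBD2 library lay below every scramble library, as it did for 11.6% of all genes, and KCC-07 overlapped control. siMBD2 was 0.73, 0.79 and 0.61 times scramble within replicate numbers, a log2 fold change of -0.49 (SE 0.19, adjusted p = 0.82) that did not pass with the block (-0.50, SE 0.11, adjusted p = 0.12). With KCC-07 it was 0.17 (SE 0.18, adjusted p = 0.60, and adjusted p = 0.37 with the block). The difference of the effects was 0.66 (SE 0.26, adjusted p = 0.27), and 0.65 with the block (SE 0.16, adjusted p = 0.046). KCC-07 replicate 3, at 47.2 CPM, held the highest level of Mavs in the series, and without it, but with its control partner, the KCC-07 difference was -0.07.

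Irf3 (chr7:44997648-45002848, plus strand), the transcription factor that is activated by phosphorylation at the end of this pathway, had 37.2, 32.9 and 28.7 CPM in KCC-07 cells, 30.3, 29.4 and 31.8 CPM in siMBD2 cells, 30.1, 31.0 and 33.1 CPM in scramble cells, and 28.8, 32.8 and 33.5 CPM in control cells. The 4 groups overlapped. The log2 fold change was 0.05 with KCC-07 (95% interval -0.19 to 0.29, adjusted p = 0.80) and -0.04 with siMBD2 (95% interval -0.28 to 0.20, adjusted p = 1). Exons of Irf3 overlap Bcl2l12 on the opposite strand. No member had a copy at 95% identity over 50% of its transcript.

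**Figure D3:**
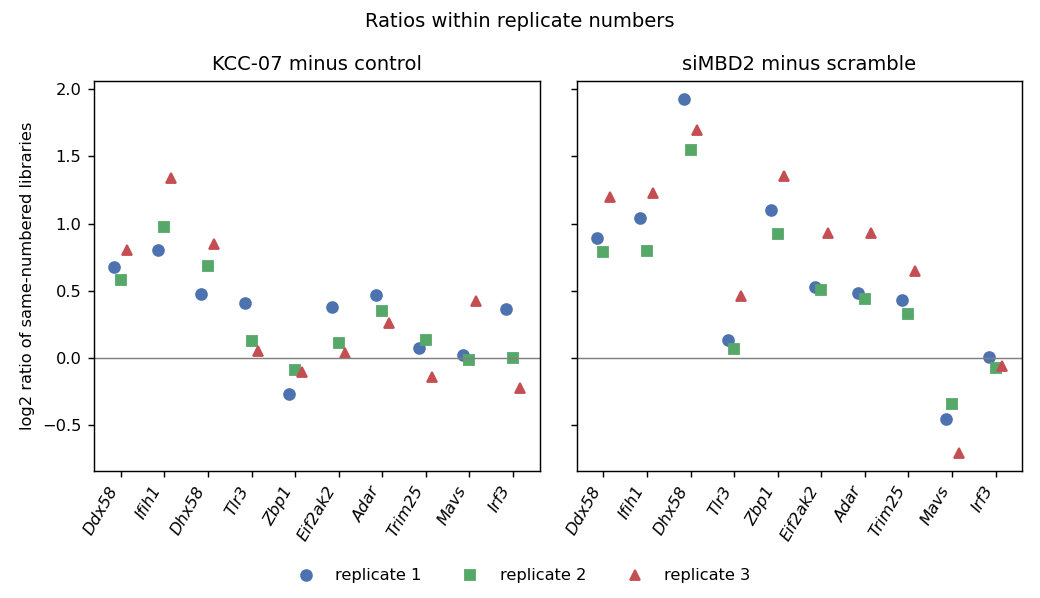
Log2 ratio of same-numbered libraries (y axis) for each gene (x axis), with a marker for each replicate number and a panel each for KCC-07 minus control and siMBD2 minus scramble. For siMBD2 minus scramble the 3 ratios are above 0 for 8 genes and below 0 for Mavs. For KCC-07 minus control the ratios of Zbp1 are below 0 in all 3 pairs.

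Compared per kilobase of exon, Ddx58 had the highest mean of the 10 genes in every group, at 26.1 ± 2.51 CPM per kb in KCC-07, 52.6 ± 25.0 in siMBD2, 25.98 ± 8.22 in scramble and 16.2 ± 0.53 in control cells (SD, n = 3 each). Its libraries did not overlap those of the next gene in KCC-07 and siMBD2 cells, but overlapped Tlr3 in scramble cells and Trim25 in control cells, where replicate 3 had 16.1 CPM per kb of Ddx58 and 18.4 of Trim25. Tlr3 and Trim25 came next in all groups and overlapped each other. In KCC-07 and control cells Mavs and Irf3 followed, at 10.7 and 9.57 CPM per kb in KCC-07 and 9.52 and 9.22 CPM per kb in control cells, and overlapped each other. The bottom of the order held Ifih1, Dhx58 and Zbp1, with Ifih1 at 3.35, Dhx58 at 3.09 and Zbp1 at 2.96 CPM per kb in KCC-07 cells. In control cells they stood at 1.62, 1.89 and 3.29 CPM per kb. In siMBD2 cells Irf3 (8.87 ± 0.36 CPM per kb) and Mavs (6.66 ± 1.17 CPM per kb) had the lowest means, and their libraries did not overlap each other. This order came from replicate 3, where Ifih1 had 17.1, Dhx58 24.7 and Zbp1 17.7 CPM per kb. In siMBD2 replicates 1 and 2 those 3 genes were again the lowest, with Ifih1 at 5.97 and 4.59, Dhx58 at 7.08 and 5.55, and Zbp1 at 6.04 and 4.90 CPM per kb. The libraries of Ifih1 and Irf3 overlapped in siMBD2 cells.

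The other genes of these pathways were followed through 7 lists with 104 genes, of which 103 were in the table and 91 passed the filter. With KCC-07, 3 were higher and 1 was lower, where 3.58% of all genes were higher and 2.08% lower. With the block 22 were higher and 2 lower, where 12.8% of all genes were higher and 9% lower. With siMBD2 none passed, against 0.0402% of all genes, and with the block 6 were higher, against 0.422% of all genes. With scramble siRNA 9 were higher and 1 was lower, where 4.71% of all genes were higher and 4.08% lower. The median log2 fold change over the 91 genes was 0.09, -0.02 and 0.07 for KCC-07, siMBD2 and scramble.

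Downstream of the sensors, in the list of 16 adaptors, kinases and factors, 3 genes rose with KCC-07 with 1 mean per group and none fell. Of all genes 3.58% were higher and 2.08% lower in that fit. With the block 6 were higher with KCC-07, these 3, Ikbkg and Irf7 among them, where 12.8% of all genes were higher, and none was lower. Ticam1, which encodes TRIF, the adaptor of TLR3, had 22.5, 23.5 and 36.7 CPM with KCC-07 and 12.2, 13.5 and 13.9 CPM in control (log2 fold change 1.06, SE 0.18, adjusted p = 0.009). Ikbke, which encodes IKKε, had 28.0, 20.2 and 22.9 CPM with KCC-07 and 14.9, 16.9 and 10.2 CPM in control (0.76, SE 0.18, adjusted p = 0.03). Tbk1, the kinase of IRF3, had 53.5, 52.5 and 49.2 CPM with KCC-07 and 38.6, 39.4 and 43.0 CPM in control (0.36, SE 0.08, adjusted p = 0.033). Each of the 3 stood above control in every KCC-07 library, a pattern of 12.3% of all genes. Tbk1 also rose with scramble siRNA, at 54.5, 54.2 and 58.8 CPM against the same control libraries (0.47, SE 0.09, adjusted p = 0.0093). For siMBD2 against scramble the log2 fold changes of Ticam1, Ikbke and Tbk1 were -0.03, 0.13 and -0.11, each with an adjusted p of 1. The KCC-07 effect exceeded the siMBD2 effect on Ticam1 by 1.08 (SE 0.25, adjusted p = 0.079), and by 1.05 with the block (SE 0.19, adjusted p = 0.021). Irf7, the interferon-inducible relative of Irf3, was the list's gene with the widest range. It had 3.79, 4.69 and 5.76 CPM in KCC-07 cells, 33.4, 23.0 and 155 CPM in siMBD2 cells, 4.21, 3.49 and 33.4 CPM in scramble cells, and 1.38, 2.10 and 2.90 CPM in control cells. For siMBD2 against scramble its log2 fold change was 2.36 (SE 0.86, adjusted p = 0.77), and 2.60 with the block (SE 0.15, adjusted p = 0.0003). For KCC-07 against control it was 1.16 (SE 0.93, adjusted p = 0.47), and 1.18 with the block (SE 0.18, adjusted p = 0.0052).

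Among 22 tested ligases and cofactors of the RIG-I-like receptors, none rose with KCC-07 with 1 mean per group, and Ywhae fell. Of all genes 3.58% were higher and 2.08% lower there. With the block 4 were higher, Rnf125, Trim14 and Oasl1 among them, where 12.8% of all genes were. In that fit 2 were lower, where 9% of all genes were. Ywhae, whose product 14-3-3 epsilon is a chaperone of RIG-I, had 786, 820.3 and 633 CPM with KCC-07 and 1128, 1014 and 935 CPM in control (log2 fold change -0.46, SE 0.10, adjusted p = 0.028). Oasl1 rose with scramble siRNA, at 6.57, 5.23 and 27.4 CPM against 0.85, 1.13 and 0.58 CPM in control (3.94, SE 0.86, adjusted p = 0.02). With KCC-07 its log2 fold change was 2.69 (SE 0.85, adjusted p = 0.083), and 2.65 with the block (SE 0.29, adjusted p = 0.0016). Ddx60, a helicase placed with RIG-I, had 21.1, 13.3 and 76.0 CPM in siMBD2 cells and 3.36, 3.29 and 20.6 CPM in scramble cells (2.02, SE 0.72, adjusted p = 0.77, and adjusted p = 0.0011 with the block).

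The 25 other double-stranded RNA genes tested did not pass with KCC-07 or siMBD2. Ddx3x and Dhx33, helicases, rose with scramble siRNA, where 4.71% of all genes were higher. Ddx3x had 938, 952 and 914 CPM with scramble and 534, 630.1 and 746 CPM in control (log2 fold change 0.55, SE 0.11, adjusted p = 0.015), and Dhx33 had a log2 fold change of 0.58 (SE 0.16, adjusted p = 0.046). Adarb1, the second editing deaminase, passed for KCC-07 with the block alone (0.39, SE 0.11, adjusted p = 0.043). In the list of 10 eIF2 alpha genes, 2 rose with scramble siRNA with 1 mean per group, where 4.71% of all genes were higher. These were Eif2ak4, the kinase GCN2 (0.39, SE 0.07, adjusted p = 0.011), and Ppp1r15b, a subunit of the phosphatase that undoes the work of PKR (0.56, SE 0.08, adjusted p = 0.0046). Ppp1r15a was lower with scramble than in control by DESeq2 (-0.67, adjusted p = 0.029) but did not pass in edgeR with 1 mean per group (adjusted p = 0.075). It also passed as lower in edgeR with the block shared by both arms (-0.70, SE 0.14, adjusted p = 0.014). With KCC-07 none of the list passed with 1 mean per group. With the block 4 were higher with KCC-07, Eif2ak3, Ppp1r15a and Ppp1r15b among them, where 12.8% of all genes were. Of the 7 genes of the ZBP1 death pathway, 6 were tested and none passed in any comparison in edgeR with 1 mean per group. Casp6, a caspase, had 12.8, 12.9 and 13.6 CPM with siMBD2 and 18.7, 18.9 and 23.5 CPM with scramble. Its libraries did not overlap, and 11.6% of all genes lay lower in that way. Its log2 fold change was -0.63 (SE 0.13, adjusted p = 0.17, and adjusted p = 0.094 with the block), and DESeq2 called it (-0.64, adjusted p = 0.0035). DESeq2 also called it as lower with scramble than in control (-0.38, adjusted p = 0.049). Ripk3, the kinase that ZBP1 recruits, had 1 count in the 12 libraries together, while Mlkl, the pore former it activates, stood at 93.4 ± 10.7 CPM with KCC-07, 98.2 ± 13.9 CPM with siMBD2, 96.1 ± 4.40 CPM with scramble and 83.5 ± 7.67 CPM in control. Of the 6 endosomal receptor genes, 2 were tested, and Cd14 fell with scramble siRNA (-0.68, SE 0.15, adjusted p = 0.022), where 4.08% of all genes were lower.

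The last list held interferon genes and early targets of IRF3, of which 10 of 14 were tested. With scramble siRNA 3 rose, where 4.71% of all genes were higher. Rsad2, encoding viperin, had 12.6, 11.1 and 64.3 CPM with scramble and 1.82, 1.60 and 0.75 CPM in control (log2 fold change 4.40, SE 0.93, adjusted p = 0.017). Ifit1 had 9.49, 9.94 and 67.0 CPM with scramble and 1.52, 2.73 and 1.13 CPM in control (4.01, SE 1.04, adjusted p = 0.036). Ccl5, a chemokine, also rose (3.08, SE 0.77, adjusted p = 0.031). With KCC-07 no gene of this list passed with 1 mean per group, and Rsad2 came nearest, at 14.7, 14.6 and 12.01 CPM with KCC-07 (3.31, SE 0.91, adjusted p = 0.054, and adjusted p = 0.0002 with the block). With the block 6 of the 10 were higher with KCC-07 (Rsad2, Ccl5, Cxcl10, Ifit1, Tnfaip3 and Isg15), where 12.8% of all genes were. With siMBD2 none passed with 1 mean per group, and with the block 4 of the 10 were higher (Isg15, Ifit1, Ifit3 and Rsad2), where 0.422% of all genes were. Isg15 had 55.2, 46.9 and 231 CPM with siMBD2 and 17.1, 17.3 and 74.1 CPM with scramble (1.62, SE 0.66, adjusted p = 0.87, and 1.59 with the block, adjusted p = 0.0007). Ifit3 had 4.78, 3.97 and 63.4 CPM with siMBD2 and 1.89, 1.66 and 15.2 CPM with scramble, and Rsad2 had 26.5, 22.1 and 155 CPM with siMBD2. Both were higher with siMBD2 in all 3 pairs. Without siMBD2 replicate 3, but with its scramble partner, their log2 fold changes were -0.52 and -0.27. Ifnb1, the interferon that IRF3 switches on, had 2, 1 and 0 counts with KCC-07, 0, 5 and 7 with siMBD2, 0, 0 and 4 with scramble, and 0 in each control library, so its level was near or below detection at this depth.

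**Figure D4:**
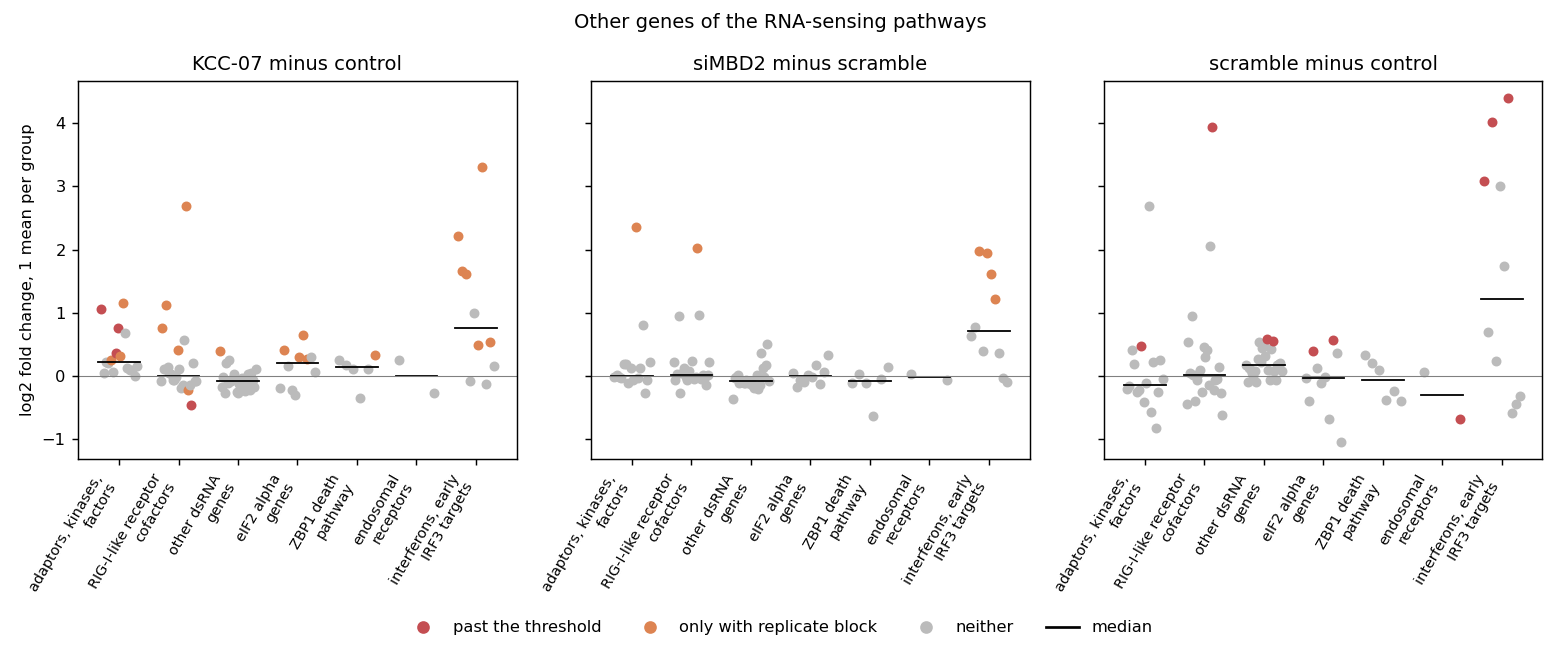
Log2 fold change with 1 mean per group (y axis) of each tested gene of the 7 lists (x axis), in 3 panels by comparison. Red points have an adjusted p under 0.05 with 1 mean per group, orange points in the first 2 panels only with the replicate block, grey points with neither, and lines are list medians. Red points are 4 for KCC-07, 0 for siMBD2 and 10 for scramble, and the highest points are interferon targets, receptor cofactors and Irf7.

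Across the 12 libraries, 8 of the 10 genes shared a pattern. Pearson's r of log2 CPM ran from 0.87 to 0.98 between any pair of the 8, and from 0.40 to 0.98 without the libraries of replicate 3, where the lowest pair was Zbp1 and Tlr3. Between Ddx58 and Mavs r was -0.68, and -0.75 over the 8 libraries without replicate 3. Between Ddx58 and Irf3 it was -0.05. The libraries share treatments and batches, so these values describe the data and carry no test. Outside the 10 genes, the most similar patterns, by r over the 12 libraries, were those of Tdrd7 for Ddx58 (0.99), Trim30a for Ifih1 (0.99), Xaf1 for Dhx58 (0.99), Rnf213 for Eif2ak2 (0.99), for Trim25 (0.97) and for Tlr3 (0.97), Oas1a for Adar (0.98), and Iigp1 for Zbp1 (0.997). The closest genes to Mavs and Irf3 were Ahcyl1 (0.94) and Pcyt1b (0.85).

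The labelled cell type was checked against marker genes. The summed level of 8 mammary epithelial markers ran from 1750 to 2001 CPM in KCC-07, 1952 to 2137 CPM in siMBD2, 2098 to 2203 CPM in scramble and 1658 to 1893 CPM in control cells. All 8 were detected in every group. Of 8 leukocyte and macrophage markers, Adgre1 and Tyrobp were at 0 in all 12 libraries, and Ptprc reached at most 0.11 CPM. The sum stayed between 2.37 and 9.08 CPM, with the highest values in KCC-07 cells, and Csf1r and Cd68 made up most of it. Csf1r had 7.61, 5.70 and 1.23 CPM with KCC-07 and 4.10, 4.43 and 2.15 CPM in control. Cd68 had 1.19, 1.57 and 7.25 CPM with KCC-07 and 0.70, 0.77 and 0.96 CPM in control. Among the 4 plasmacytoid dendritic markers, Siglech and Irf8 were at 0 throughout, while Bst2, which is itself interferon-inducible, had 18.2, 20.4 and 34.3 CPM with KCC-07, 59.2, 51.5 and 185 CPM with siMBD2, 26.8, 24.4 and 73.2 CPM with scramble, and 9.19, 13.8 and 7.83 CPM in control. The remaining marker, Tcf4, was detected in every group, with means of 112, 106, 112 and 149 CPM in KCC-07, siMBD2, scramble and control cells. That list's sum ran from 133 to 140 CPM with KCC-07 and from 152 to 301 CPM with siMBD2. It ran from 130 to 196 CPM with scramble and from 142 to 179 CPM in control. The endothelial marker Cdh5 was at 0 in all libraries and that list's sum ran from 0.92 to 6.62 CPM. Most of that sum was Pecam1, at 6.48, 3.92 and 1.08 CPM with KCC-07 and 3.92, 2.53 and 3.04 CPM in control. Of the 5 fibroblast markers Thy1 was at 0 in all libraries, and the sum was lower with KCC-07 (98.7 to 150 CPM) than in control (168 to 202 CPM). Within it Pdgfra had 131, 129 and 69.6 CPM with KCC-07 and 144, 160 and 150 CPM in control. In the siRNA groups the high sensor levels of replicate 3 came with the highest shares of mitochondrial transcripts of their groups, and the part of one in the other was not tested. KCC-07 replicate 3 and control replicate 3 also had the highest such share of their groups, without sensor levels of that height.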

How the data were processed

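The authors deposited 1 table of read counts per gene, whole numbers without normalization, for 12 libraries, and library names in its header were matched to those in the labels. DRAGEN and DESeq2 1.44.0 are listed in the submitters' processing notes, as are the builds mm10 and GRCm38.p6. The table's annotation, strand setting and treatment of multi-mapped reads are not given in the sources used here. Low genes were removed by edgeR's filterByExpr (minimum count 10, minimum total 15), and the others were scaled by TMM and tested in R 4.3.3 with edgeR 4.0.16 (estimateDisp, glmQLFit, glmQLFTest), fitting a mean for each group to the 12 libraries (8 residual degrees of freedom), with Benjamini-Hochberg adjustment over all 14935 genes, threshold 0.05. The procedure was tested on simulated data. An exact permutation test of 3 against 3 libraries cannot give a p below 0.1 and was not used.

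The labels' batch tag names biological replicate 1, 2 or 3, and it was read here as pairing the libraries within each arm. Deviations of same-numbered libraries from their group means correlated at 0.27, 0.28 and 0.48 between KCC-07 and control and at 0.09, 0.15 and 0.42 between siMBD2 and scramble. Libraries 1 and 2 with different numbers correlated at 0.17 and 0.30 between KCC-07 and control, about as much as those with the same number. Between siMBD2 and scramble they correlated at 0.18 and 0.21, more than libraries 1 and 2 with the same number. The pairing of those 2 therefore rests on this reading of the tag alone. Across the arms the numbers were not taken as pairs. Any 2 libraries of a group differed by more than sampling noise (lowest chi-square over degrees of freedom 3.32).

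Other settings were DESeq2 size factors, the Wald test of DESeq2 1.42.0, no filter, a floor of 1 CPM reached in 3 libraries, the block for replicate number, the 6 libraries of a comparison alone, and leaving out each library or the 4 of replicate 3. The block within each arm left 4 residual degrees of freedom, and the block shared by both arms, used for scramble minus control, left 6. The members and lists were chosen with earlier results of these data known. All members are named, and from each list up to 4 genes with the smallest adjusted p per comparison, plus for each member the genes of the most similar pattern (log2 CPM, prior count 2, mean of at least 2 CPM). Ripk3, Mlkl, Ifnb1, Irf7 and Rsad2 in comparisons where they fall outside this rule were named with their values known. Positions are those of GENCODE on GRCm38.p6, which holds 54587 of the 55335 identifiers in the same version. One list symbol was matched under another name and 1 was not matched.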

Additional observations from a re-analysis of the deposited data

Results flagged for a closer look

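The KCC-07 and siMBD2 effects, each against its own reference, differed for 3 members by the test of the difference with the replicate block (edgeR quasi-likelihood, log2 scale): Dhx58 by -1.05 (adjusted p = 0.012), Zbp1 by -1.29 (adjusted p = 0.0065) and Mavs by 0.647 (adjusted p = 0.046). None of the 3 passed with 1 mean per group, and Mavs did not pass without the libraries of replicate 3 (adjusted p = 0.073). For Zbp1 all 3 KCC-07 libraries lay below their paired control libraries and all 3 siMBD2 libraries above their paired scramble libraries, and the difference with 1 mean per group was -1.38 (adjusted p = 0.36).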

How the results depend on the processing

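Genes called over all genes (main 844 for KCC-07, 6 for siMBD2, 1313 for scramble and 98 for the difference of the effects) came to 3251, 112, 2062 and 1030 with the replicate block, 1874, 85, 2299 and 617 by DESeq2, and 3832, 162, 6164 and 1583 without the libraries of replicate 3. With the 6 libraries of a comparison alone they were 1 for KCC-07 and 177 for siMBD2, and with no filter 176 for the difference. Leaving out 1 library gave 384 to 2112, 2 to 3, 293 to 3110 and 11 to 320. Members called were 0 in each main test and 0 whichever library was left out. They were 4, 6, 2 and 3 with the block, and 5, 7, 6 and 2 without replicate 3. DESeq2 called 1 for siMBD2 and 2 for scramble, and for scramble no filter gave 2 and the 6 libraries alone gave 1. Between scramble and control same-numbered libraries correlated at 0.07, 0.02 and 0.13, so these groups share only a number. The block, shared by both arms there, called Ifih1 and Adar. The causes were not tested.

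The sign of the log2 difference turned for some members and for the list genes Tnfaip3, Ifit3, Rsad2 and Irf7, none of them past the threshold in its main test. Without replicate 3, scramble minus control was 0.11 for Mavs and -0.26 for Zbp1, and the difference of the effects was 0.17 for Tlr3. With the block that difference was 0.018 for Ifih1. The lowest and highest values with 1 library or the libraries of replicate 3 left out were, for KCC-07, -0.071 to 0.30 for Mavs, -0.089 to 0.19 for Trim25, -0.039 to 0.19 for Irf3 and -0.0030 to 1.09 for Tnfaip3; for siMBD2, -0.092 to 0.46 for Tlr3, -0.52 to 3.76 for Ifit3 and -0.27 to 2.52 for Rsad2; for scramble, -0.020 to 1.32 for Dhx58, -0.10 to 0.11 for Mavs, -0.29 to 0.56 for Zbp1 and -0.080 to 0.028 for Irf3; and for the difference, -0.62 to 0.14 for Ddx58, -0.69 to 0.75 for Ifih1, -1.08 to 0.12 for Eif2ak2, -0.51 to 0.085 for Adar, -0.26 to 0.29 for Tlr3, -0.0025 to 0.22 for Irf3 and -3.04 to 0.11 for Irf7. Over 570 member values under other settings, 29 turned in sign, 500 kept sign and side of the threshold, and 41 were now past it.

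At 25831299 counts or more per library all members had enough counts to be tested. Ripk3, Ifnb1 and Unc93b1 were too low to compare.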
